A study of Mus musculus with 17 samples.

Results

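The 8 genes whose products take up or chemically activate aristolochic acid (AA) were followed in 9 single-cell RNA sequencing libraries of mouse kidney. The members, 8 of 31053 genes in the kidney gene list, were chosen by name for this role, with earlier results of these data known. They were the organic anion transporters Slc22a6, Slc22a8 and Slc22a7, the reductases Nqo1 and Por, the cytochromes P450 Cyp1a1 and Cyp1a2, and the sulfotransferase Sult1a1. All mice were 8 weeks old and carried PDGFRb-Cre, which acts in cells that use or once used the Pdgfrb promoter, together with the Z/EG reporter that turns GFP on after Cre has acted. SARATg mice also carried a Cre-dependent transgene of SARA (gene Zfyve9), and SARAWT mice did not. Kidney mice received 5 mg/kg AA by intraperitoneal injection 3 times a week for 3 weeks, or vehicle by the same route. There were 3 SARAWT AA, 1 SARATg AA, 3 SARAWT vehicle and 2 SARATg vehicle libraries. The 8 skin libraries used as a contrast came from mice injected under the skin with PBS (3 SARAWT, 1 SARATg) or, by the labels, with 20 mg/kg bleomycin 3 times a week for 2 weeks (3 SARAWT, 1 SARATg). Tissue was digested with Liberase TM and GFP+ cells were sorted.

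Aristolochic acid is a plant nitro compound that injures the proximal tubule, the part of the nephron that reabsorbs most of the filtrate and secretes organic anions. The organic anion transporters of the basolateral membrane carry it from blood into tubule cells. Inside the cell, its nitro group is reduced by NQO1 and, to a lesser extent, by CYP1A enzymes and the P450 reductase encoded by Por, and the reduced product forms DNA adducts. Sulfotransferases such as SULT1A1 can conjugate the reduced product to a more reactive form.

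The 9 kidney libraries held 5008 to 13190 cell barcodes, and 66032 of 75562 cells were kept. Total UMIs (molecules counted by their unique molecular identifiers) ranged from 28660151 to 137093834 per library. Any pair of libraries shared 5 to 55 barcodes, at most 0.483% of the smaller library. Cells were assigned to classes by fixed marker genes that include no member. Pdgfrb itself was at 0.227 to 2.80 CPM (UMIs of a gene scaled to a common total of UMIs), and mural and stromal cells made up 0.0361% to 0.827% of kept cells. Nothing in the labels says whether libraries of a group came from separate mice, so p-values measure only the spread between these libraries.

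Several libraries stood apart from their labels. The library labelled SARAWT vehicle 3 had 18.2% proximal tubule cells, against 35.2% to 84.9% in the other 4 vehicle libraries and 9.09% to 38.4% in the 4 AA libraries. Its leukocyte share was 48.0%, against 7.63% to 31.7% and 34.5% to 60.1%. In its S3 cells the injury marker Havcr1 was at 176.5 CPM, against 0.8 to 23.7 CPM in the other vehicle libraries and 76.7 to 160.4 CPM in the AA libraries. The main results on AA are therefore given with all 9 libraries and again without SARAWT vehicle 3, and the second value rests on leaving out a vehicle library that resembled the AA libraries. That library also had the lowest S3 Slc22a6 and Slc22a8 of the vehicle libraries and was set apart with these values known, so the p-values without it depend on that choice and are not independent support for a difference. Xist was at 1312 to 1314 CPM with Y-linked genes at 0.0665 and 0.132 CPM in SARAWT vehicle 2 and SARATg AA 1, whereas the other 7 libraries had Xist at 0.0385 to 0.477 CPM and Y-linked genes at 133 to 164 CPM. Zfyve9 was at 91.9 and 89.3 CPM in the SARATg vehicle libraries and at 10.3 to 31.3 CPM in the SARAWT vehicle libraries, but at 163 CPM in the library labelled SARAWT AA 1 and at 19.7 CPM in the library labelled SARATg AA 1. By Zfyve9, SARAWT AA 1 thus lay above both SARATg vehicle libraries, and SARATg AA 1 lay within the range of the SARAWT vehicle libraries. The transgene holds the human cDNA, and how much of it is counted as the mouse gene was not measured, so the genotype check was limited. The genotypes of these AA libraries were not settled, and genotype contrasts and SARAWT fits below are by label.

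Slc22a6 and Slc22a8 lay next to each other on mouse chromosome 19 (GRCm38, GENCODE vM21), Slc22a8 at chr19:8591254-8611835 and Slc22a6 at chr19:8618039-8628299, both on the plus strand, 6203 bases apart with 0 annotated genes between them. Cyp1a2 (chr9:57676937-57683703, minus strand) and Cyp1a1 (chr9:57687928-57703824, plus strand) formed a second neighbouring pair, 4224 bases apart. The other members lay at chr17:46432183-46438457 (Slc22a7, minus), chr8:107388225-107403206 (Nqo1, minus), chr5:135670033-135735326 (Por, plus) and chr7:126672865-126676432 (Sult1a1, minus). The promoters of the neighbouring carriers are shown because in S3 both genes were lower in all AA libraries than in 4 of the 5 vehicle libraries. RefSeq (GRCm38.p6) gave a promoter of 300 bases for 7 of the 8 members, and none was found for Slc22a7. The windows below are chr19:8617746-8618045 and chr19:8592932-8593231, plus strand. In each, the capital letter marks the first base transcribed from the RefSeq start used. The Slc22a8 window lies within the gene span given above, so that its start is not the first base of the annotated gene.
Slc22a6: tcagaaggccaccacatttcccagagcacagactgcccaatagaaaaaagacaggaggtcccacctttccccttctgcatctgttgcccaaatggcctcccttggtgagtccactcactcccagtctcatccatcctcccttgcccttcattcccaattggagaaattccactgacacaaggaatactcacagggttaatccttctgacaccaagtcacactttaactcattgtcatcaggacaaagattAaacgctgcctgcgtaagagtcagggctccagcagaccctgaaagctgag
Slc22a8: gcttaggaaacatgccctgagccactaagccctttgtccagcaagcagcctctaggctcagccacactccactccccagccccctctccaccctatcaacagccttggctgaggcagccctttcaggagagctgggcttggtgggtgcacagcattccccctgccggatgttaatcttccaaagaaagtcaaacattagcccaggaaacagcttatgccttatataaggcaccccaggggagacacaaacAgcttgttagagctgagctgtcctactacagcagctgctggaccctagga

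Short motifs were searched on both strands of the 7 member promoters and of all 32851 RefSeq promoters. The core of the aryl hydrocarbon receptor element was searched as TNGCGTG (0 members, 5.07% of promoters) and as the shorter GCGTG that lies within it (Por and Cyp1a1, 32.4%). The antioxidant response element was searched as TGACNNNGC (0 members, 12.4%), the E-box as CACGTG (0 members, 7.15%) and the nuclear receptor core as AGGTCA (0 members, 16.3%). The HNF4 sites CAAAGTCCA and TGAACTTTG were in 0 member promoters and in 0.475% and 0.390% of all promoters. A match is a description of letters in this window and shows no binding. A count of 0 covers these 300 bases only and does not show that a gene lacks the element elsewhere.

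Expression of the 3 carriers was highest in the proximal tubule classes. As the mean over libraries in which a class had 10 or more cells, Slc22a6 was at 353 CPM in the S3 (straight) segment and 205 CPM in the convoluted segment, and at 4.77 to 9.96 CPM in the 7 other classes. Slc22a8 was at 210 CPM in the convoluted and 109 CPM in the S3 segment, and at 2.71 to 5.86 CPM elsewhere. Slc22a7 was at 167 CPM in S3, 0.613 CPM in the convoluted segment and at most 0.869 CPM elsewhere. These means pool vehicle and AA libraries. With vehicle, S3 held 448 CPM of Slc22a7 in SARAWT vehicle 3 and 15.2 to 67.5 CPM in the other libraries. The low carrier levels outside the tubule varied between libraries. Leukocytes, which are not known to use Slc22a6, held 22.4, 3.56, 13.97 and 12.1 CPM of it in SARAWT vehicle 1, SARAWT vehicle 2, SARATg vehicle 1 and SARATg vehicle 2, 0.405 CPM in SARAWT vehicle 3, 0.160, 4.63 and 0.804 CPM in SARAWT AA 1 to 3 and 0.493 CPM in SARATg AA 1.

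**Figure D1:**
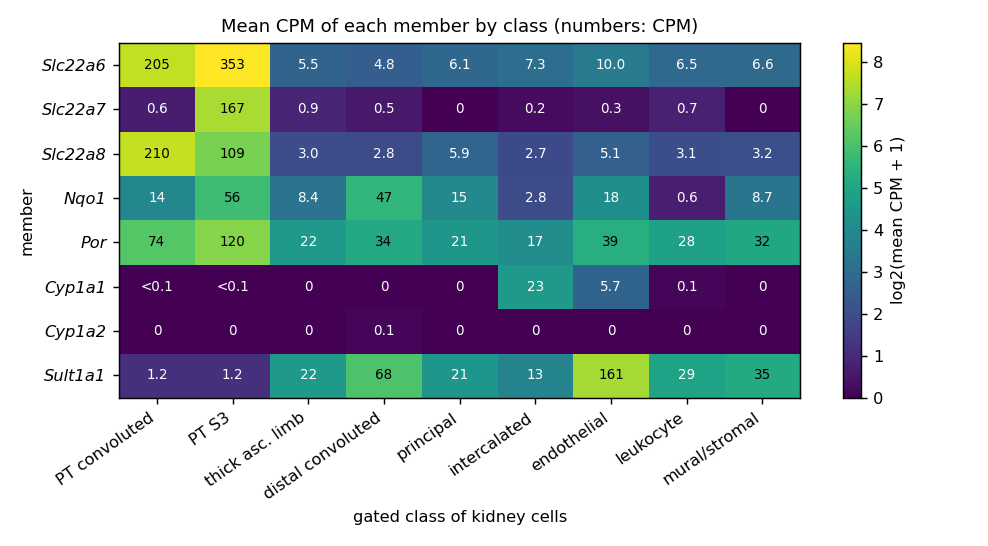
Heat map of the mean level (CPM) of each member in each marker-gated class of kidney cells, averaged over the vehicle and AA libraries in which that class had 10 or more cells. The carriers are brightest in the proximal tubule columns (Slc22a7 in S3 alone at 167 CPM), Cyp1a1 in intercalated cells (22.8 CPM) and Sult1a1 in endothelial cells (161 CPM).

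The enzymes were distributed differently from the carriers. Nqo1 was at 56.4 CPM in S3 and 46.9 CPM in the distal convoluted tubule, and at 0.624 to 17.7 CPM in the other classes. The S3 mean was 39.6 CPM without SARATg AA 1 (191 CPM from 25 UMIs), and over the 5 vehicle libraries S3 held 30.04 ± 13.03 CPM and the distal convoluted tubule 42.8 ± 28.6 CPM. Por was detected in every class, from 16.6 CPM in intercalated cells to 120 CPM in S3. Cyp1a1 was at 22.8 CPM in intercalated cells and 5.68 CPM in endothelial cells, and at most 0.117 CPM elsewhere. Cyp1a2 had 1 UMI in a gated class, in the distal convoluted tubule of SARAWT vehicle 1. Sult1a1 was at 161 CPM in endothelial cells and 68.0 CPM in the distal convoluted tubule, and at 1.19 and 1.24 CPM in the 2 proximal tubule segments. In these data, the carriers and the sulfotransferase therefore had their highest levels in different classes.

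The genes whose class profile was most like that of a member were found by Pearson correlation of log2(CPM + 1) over the 9 classes, among 6356 genes that reached 50 CPM. Points share library and depth, and the values are descriptive. Slc22a6 was most like Slc23a1 (r = 0.995), Amn (0.994) and Slc2a5 (0.993). Slc22a7 was most like Slc22a13 (0.996), Slc7a12 (0.993) and Slc22a19 (0.992), and Slc22a8 most like Agxt2 (0.991), Ugt2b38 (0.990) and Paqr9 (0.989). For Nqo1 the closest genes were less alike, at 0.900 (Babam1), 0.883 (Gatad1) and 0.873 (Psmd11).

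Convoluted and S3 cells of the same library were compared over 9 libraries with a two-sided exact sign-flip permutation test of the log2 difference (1 CPM added), whose smallest possible p is 0.00391. The test was run on 5 members, and its p-values are not adjusted. Nqo1 was higher in S3 in 9 of 9 libraries, by 1.60 ± 0.62 (SD, n = 9) on the log2 scale (exact p = 0.00391). Por was higher in S3 in 8 of 9 libraries, by 0.65 ± 0.40 (exact p = 0.00781). Slc22a7 was higher in 8 of 9, by 5.38 ± 2.60 (exact p = 0.00781), the exception being SARATg AA 1 with 0 UMIs in both segments. Slc22a8 was lower in S3 in 7 of 9 libraries, with a mean difference of -2.76 ± 2.64 (exact p = 0.0156). The 4 AA libraries and SARAWT vehicle 3 were all among these 7, whereas of the other 4 vehicle libraries 2 were higher (367 against 350.4 CPM and 226 against 204 CPM) and 2 lower (151 against 281 CPM and 159 against 245 CPM). Slc22a6 was higher in S3 in 4 of 9 libraries and its mean difference of -0.29 ± 1.86 did not pass (exact p = 0.645). Those 4 libraries were the vehicle libraries other than SARAWT vehicle 3, and in SARAWT vehicle 3 and the 4 AA libraries S3 held less Slc22a6 than the convoluted segment. The sizes depended on the settings, with Slc22a7 at 3.12 and Slc22a8 at -1.83 when 10 CPM was added in place of 1 (exact p = 0.00781 and 0.0156), and Nqo1 at 1.04 with clusters in place of gates (exact p = 0.00781). With clusters, Slc22a6 was higher in S3 in 2 of 8 libraries (-0.79, exact p = 0.172). Slc22a8 was then higher in S3 in 0 of 8 (-2.69, exact p = 0.00781). The order of the segments within vehicle libraries given above therefore holds for the gates and depended on how segments were assigned. The 4 differences that passed stayed below an exact p of 0.05 without SARAWT vehicle 3 (0.00781 to 0.0312).

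S3 is the segment in which AA injury is classically described, and the carrier levels there are given first. All segments were tested in the same way. Slc22a6 (OAT1), the main organic anion exchanger of the tubule, was at 808 CPM in SARAWT vehicle 1, 425 in SARAWT vehicle 2, 756 in SARATg vehicle 1 and 909 in SARATg vehicle 2, but at 28.6 in SARAWT vehicle 3. After AA it was at 30.3, 39.7 and 60.2 CPM in the SARAWT libraries and at 122 CPM (16 UMIs) in SARATg AA 1. All 4 AA libraries were below 4 of the 5 vehicle libraries, and SARAWT vehicle 3 was below all 4 AA libraries. The means were 63.1 ± 41.3 CPM (SD, n = 4) after AA and 585 ± 360 CPM (n = 5) with vehicle, or 724 ± 210 CPM (n = 4) without SARAWT vehicle 3.

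By edgeR over both genotypes, the Slc22a6 difference in S3 was -3.31 (SE 0.74) on the log2 scale with an adjusted p of 0.342, so that it did not pass with all 9 libraries. It fell by 3.66 (SE 0.34, edgeR adjusted p = 0.00151) without SARAWT vehicle 3. For SARAWT alone the same fits gave -3.33 (SE 0.91, adjusted p = 0.544) and -3.86 (SE 0.38, adjusted p = 0.00457). DESeq2, run as an alternative on all 9 libraries, put Slc22a6 past the threshold (adjusted p = 0.000905 over both genotypes and 0.0197 in SARAWT). The two-sided exact permutation test on log2(CPM + 1) gave a difference of -2.74 (p = 0.0794, 4 against 5, smallest possible 0.0159), and -3.65 without SARAWT vehicle 3 (p = 0.0286, the smallest that 4 against 4 allows). This was 1 of 30 such tests of members and classes, none adjusted. When both libraries with high Xist were left out, the edgeR difference was -3.36 with an adjusted p of 0.836.

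Slc22a8 (OAT3), a basolateral exchanger with an overlapping range of substrates, also had lower S3 levels in the AA libraries than in 4 of the 5 vehicle libraries. It was at 151, 367, 226 and 159 CPM in SARAWT vehicle 1, SARAWT vehicle 2, SARATg vehicle 1 and SARATg vehicle 2, and at 1.56 CPM (8 UMIs) in SARAWT vehicle 3. After AA, SARAWT libraries had 0 UMIs (an upper limit of 2.03 CPM, exact Poisson), 9.32 CPM (15 UMIs) and 1.37 CPM (1 UMI), and SARATg AA 1 had 61.1 CPM (8 UMIs, exact Poisson interval 26.4 to 119.9). The AA libraries lay below the 4 vehicle libraries other than SARAWT vehicle 3, which lay among them. The edgeR difference over both genotypes was -4.47 (SE 1.4, adjusted p = 0.342) with all libraries, and Slc22a8 fell by 4.84 (SE 0.94, adjusted p = 0.0244) without SARAWT vehicle 3. In SARAWT alone the values were -5.41 (SE 1.66, adjusted p = 0.544) and -5.98 (SE 0.89, adjusted p = 0.0172). Leaving out single libraries moved the SARAWT value between -8.68 and -4.36, and the value of -8.68 (adjusted p = 0.570) came without SARAWT AA 2, when the remaining SARAWT AA libraries held 1 UMI in all, so that the size of this fold change is poorly determined. Counting intervals here cover counting error only.

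**Figure D2:**
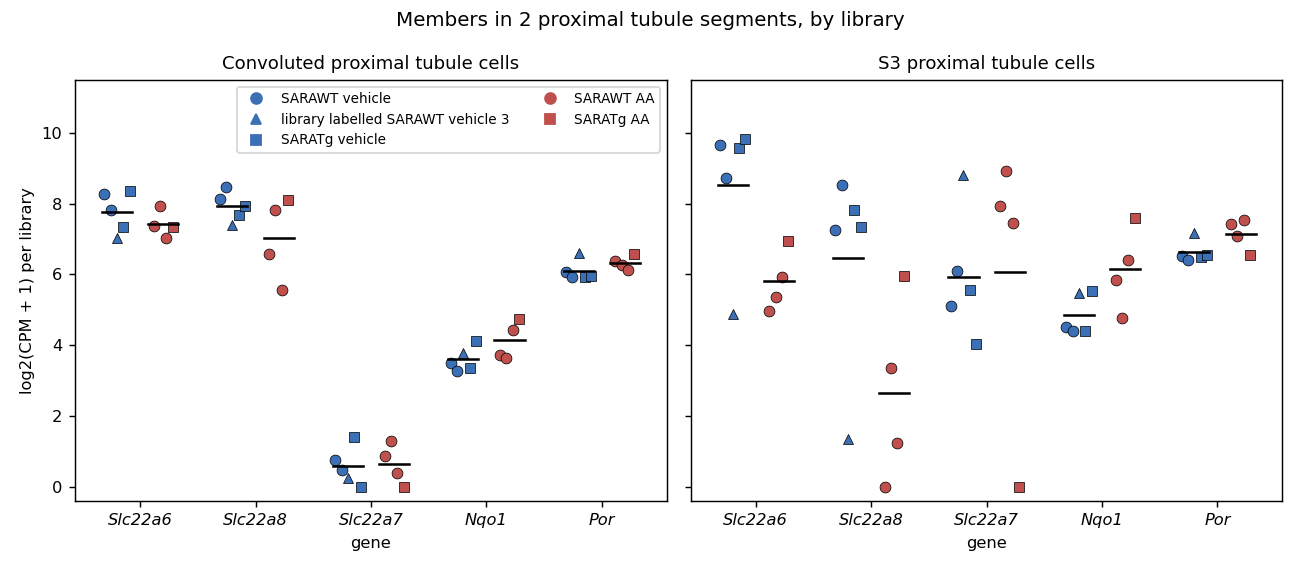
Level of 5 members in convoluted and S3 proximal tubule cells of each of the 9 kidney libraries, as log2(CPM + 1), with vehicle in blue, AA in red, squares for SARATg, a triangle for the library labelled SARAWT vehicle 3 and bars for the group means. In S3, Slc22a6 and Slc22a8 of the AA libraries lie below all vehicle libraries except SARAWT vehicle 3 (28.6 and 1.56 CPM).

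Slc22a7 (OAT2) showed no such order. It was at 33.5 and 67.5 CPM in SARAWT vehicle 1 and 2, 45.9 and 15.2 CPM in the SARATg vehicle libraries and 448 CPM in SARAWT vehicle 3. It was at 243, 480.0 and 172 CPM in the SARAWT AA libraries and had 0 UMIs in SARATg AA 1 (upper limit 28.2 CPM). SARAWT AA libraries were thus all above 4 vehicle libraries, while in the SARATg AA library, with 19 S3 cells, the upper limit lay above SARATg vehicle 2, so that its order against that library is not established. The edgeR difference over both genotypes was 0.12 (SE 0.96, adjusted p = 0.979), and 1.82 (SE 1.01, adjusted p = 0.290) without SARAWT vehicle 3. In SARAWT alone it was 0.57 (SE 0.96, adjusted p = 0.870) and 2.67 (SE 0.68, adjusted p = 0.0592), and none of the 4 passed.

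Among the enzymes in S3, Nqo1, the main reductase of AA, was at 21.6, 19.9, 20.1 and 45.3 CPM in SARAWT vehicle 1, SARAWT vehicle 2, SARATg vehicle 1 and SARATg vehicle 2, and at 43.2 CPM in SARAWT vehicle 3. After AA it was at 56.8, 26.1 and 83.5 CPM in SARAWT and at 191 CPM in SARATg AA 1. The groups overlapped through SARAWT AA 2. The edgeR difference over both genotypes was 1.16 (SE 0.43, adjusted p = 0.347), and without SARAWT vehicle 3 Nqo1 rose by 1.60 (SE 0.37, adjusted p = 0.0368). In SARAWT alone it was 0.81 (SE 0.50, adjusted p = 0.591) and 1.38 (SE 0.46, adjusted p = 0.110), and the exact permutation p was 0.0635 with and 0.0571 without SARAWT vehicle 3.

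Por, the electron donor of microsomal P450 enzymes, was at 84.1 to 91.8 CPM in 4 vehicle libraries and at 143 CPM in SARAWT vehicle 3. It was at 169.7, 135 and 183 CPM in SARAWT AA libraries and at 91.7 CPM (12 UMIs, interval 47.4 to 160.1) in SARATg AA 1. The SARAWT AA libraries were above the 4 lower vehicle libraries, and SARATg AA 1 was level with them. In SARAWT, the edgeR difference was 0.50 (SE 0.29, adjusted p = 0.579) with all libraries, and Por rose by 0.90 (SE 0.21, adjusted p = 0.0493) without SARAWT vehicle 3. Over both genotypes it was 0.26 (SE 0.30, adjusted p = 0.742) and 0.53 (SE 0.30, adjusted p = 0.303).

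**Figure D3:**
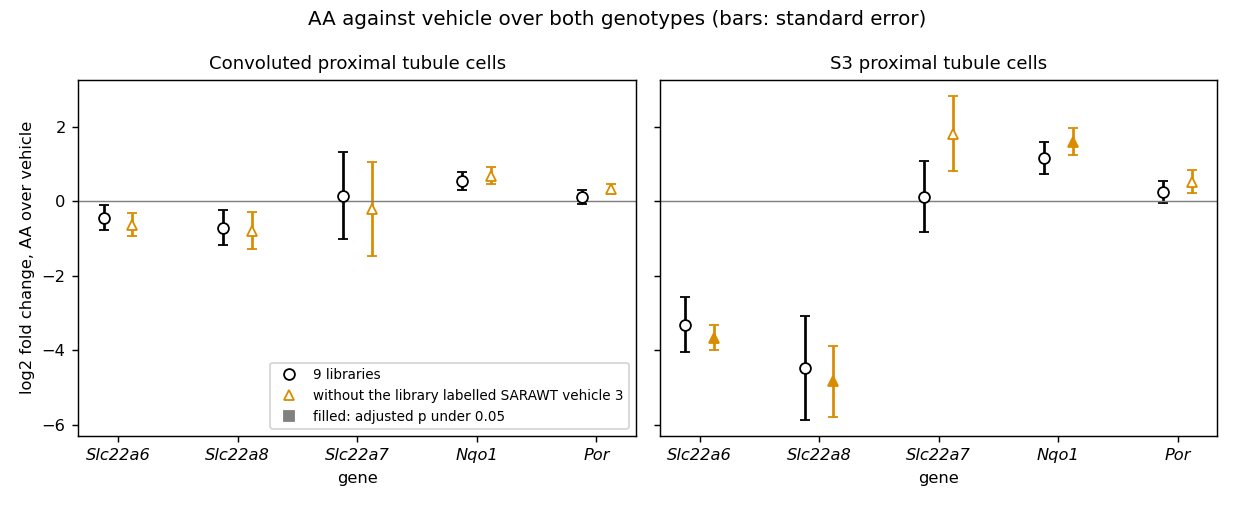
edgeR log2 fold change ± SE of members, AA against vehicle over both genotypes, by class, with all 9 libraries and without the library labelled SARAWT vehicle 3; filled points have an adjusted p under 0.05. The filled points in S3 are Slc22a6 (-3.66), Slc22a8 (-4.84) and Nqo1 (1.60), all without that library.

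Counted together, 0 of 6 members tested in S3 of SARAWT passed with all libraries, where 0% of all 12555 genes did (1140 at an unadjusted p under 0.05, 25 by DESeq2). Without SARAWT vehicle 3, 3 of 6 passed (Slc22a6 and Slc22a8 lower, Por higher) against 4.85% of 11950 genes, with a median difference of 0.43 for members and -0.03 for all genes. Over both genotypes 0 of 5 passed with 9 libraries (0% of 11592 genes, 1582 at an unadjusted p under 0.05, 134 by DESeq2). Without SARAWT vehicle 3, 3 of 5 passed (Slc22a6 and Slc22a8 lower, Nqo1 higher) against 6.86% of 10895 genes, with medians of 0.53 and -0.04. That library was set apart with its S3 levels of Slc22a6 and Slc22a8 known, and the members were chosen with earlier results known. The counts without it depend on these choices and do not show that members passed more often than other genes.

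Other measurements of the S3 cells are set beside the carrier levels. The S3 gate held 291 to 6239 cells in vehicle libraries and 19 to 201 cells in AA libraries. The 8 leukocyte markers summed to 19.1 to 129 CPM in the S3 cells of 4 vehicle libraries, 329 CPM in SARAWT vehicle 3 and 197 to 848 CPM after AA, with none of them at 0 throughout. The 6 S3 markers summed to 1744 to 4770 CPM, 4817 CPM and 1024 to 5363 CPM, so that these ranges overlapped. Some single markers differed more between libraries, and the genes given next are examples and do not stand for all markers. Cyp7b1, an oxysterol hydroxylase, was at 0 to 10.8 CPM in the S3 cells of 4 vehicle libraries, 577 CPM in SARAWT vehicle 3, 757, 667 and 246 CPM in SARAWT AA libraries and 0 in SARATg AA 1. Slc34a1, the sodium phosphate cotransporter of the proximal tubule, was at 687 to 2279 CPM in 4 vehicle libraries, 71.2 CPM in SARAWT vehicle 3 and 122 to 771 CPM after AA. The 12 markers of any proximal tubule summed to 15824 to 27013, 10522 and 10325 to 11086 CPM. The part of the leukocyte and proximal tubule marker levels in the carrier differences was not tested.

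The S3 cells of these libraries also fell into different clusters when cells were clustered without using the gates. One cluster (led by Kap, Mep1a and Aadat) held 98.3% of the S3 cells of SARAWT vehicle 3 and 93.0% to 96.9% of those of the SARAWT AA libraries. S3 cells of the other 4 vehicle libraries lay mostly in other clusters. The largest clusters in SARAWT vehicle 1 and SARATg vehicle 1 were named S3 by their markers. In SARAWT vehicle 2, 54.6% and 36.9% lay in clusters named convoluted. In SARATg vehicle 2, 59.1% lay in a cluster named S3 and 32.8% in one named convoluted. Among the alternatives, the S3 fits were rerun with S3 cells named by cluster, and neither Slc22a6 nor Slc22a8 passed in that rerun. Over all alternatives and both genotypes, the difference ranged from -4.26 to -2.64 for Slc22a6 and from -5.38 to -3.47 for Slc22a8. The part of cluster membership in the S3 differences was not tested separately. In SARATg AA 1, 73.7% of the 19 S3 cells lay in a cluster led by Cryab, Spp1 and Gdf15. That cluster got no class or segment name from its markers. SARATg AA 1 had 0 cells in the cluster led by Kap, Mep1a and Aadat. Its 19 cells were S3 by the gate alone and entered the fits over both genotypes. Within the cluster led by Kap, Mep1a and Aadat, Slc22a6 was at 241 CPM in SARAWT vehicle 2 (43 cells), 117 CPM in SARATg vehicle 2 (31 cells) and 27.0 CPM in SARAWT vehicle 3 (297 cells), against 36.4, 22.7 and 58.4 CPM in the SARAWT AA libraries. Slc22a8 was at 112, 19.5 and 4.44 CPM in the same vehicle libraries, against 1.63, 6.75 and 1.39 CPM. Por was at 153, 159.9 and 142 CPM against 172, 136 and 186 CPM. Nqo1 was at 15.9, 60.4 and 42.3 CPM against 54.8, 27.0 and 65.3 CPM, and Slc22a7 at 460.3, 144 and 436 CPM against 243, 499 and 154 CPM. Within this cluster the groups overlapped for Por, Nqo1 and Slc22a7, also without SARAWT vehicle 3. For Slc22a6 and Slc22a8 they overlapped through SARAWT vehicle 3 alone. Slc7a13, an S3 marker, was at 10.6, 1609 and 786 CPM in the same vehicle libraries against 588, 1160 and 538 CPM, so that it overlapped as well.

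The share of S3 cells with a Slc22a6 UMI separated the same libraries at equal depth, with the 4 AA libraries and SARAWT vehicle 3 below the other 4 vehicle libraries. After each cell was thinned to 1000 UMIs, 51.3%, 35.8%, 47.3% and 52.0% of S3 cells in the vehicle libraries other than SARAWT vehicle 3 had a Slc22a6 UMI. The share was 1.72% in SARAWT vehicle 3, 1.75%, 2.06% and 7.81% in SARAWT AA libraries and 5.56% in SARATg AA 1. Before thinning, these AA libraries held 116, 201, 64 and 19 S3 cells, so that their shares rest on few cells. The shares are drawn from the same UMIs as the CPM and are not separate support. Thinning left out 141 of 9680 vehicle and 10 of 400 AA cells of S3, and unthinned shares were 85.2% to 94.6%, 13.4% and 10.9% to 47.4%. In leukocytes the thinned share was 0.0884% to 3.04% with vehicle and 0.0251% to 0.190% after AA (median 2919.5 to 5667 UMIs per cell, against 5480 to 15106 in S3).

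In the convoluted segment no member passed by edgeR. Slc22a6 was at 308, 223, 160.3 and 324 CPM in the vehicle libraries other than SARAWT vehicle 3 (129 CPM), and at 164, 245 and 129 CPM in SARAWT AA and 161 CPM in SARATg AA 1, so that the groups overlapped. The edgeR difference over both genotypes was -0.44 (SE 0.33, adjusted p = 0.636), and -0.63 (SE 0.31, adjusted p = 0.318) without SARAWT vehicle 3. Slc22a8 was at 204 to 350.4 CPM, 167 CPM, and 95.2, 227, 46.4 and 272 CPM in these groups, with a difference of -0.71 (SE 0.46, adjusted p = 0.603), and -0.79 (SE 0.50, adjusted p = 0.425) without SARAWT vehicle 3.

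Por in convoluted cells was at 60.0 to 66.1 CPM in 4 vehicle libraries, 95.9 CPM in SARAWT vehicle 3 and 68.9 to 93.8 CPM after AA. Its difference was 0.12 (SE 0.19, adjusted p = 0.822), and without SARAWT vehicle 3 it was 0.32 (SE 0.13, adjusted p = 0.233; exact permutation p = 0.0286 on 0.36). Nqo1 was at 8.69 to 16.2 CPM with vehicle and at 11.4 to 25.9 CPM after AA, with a difference of 0.55 (SE 0.24, adjusted p = 0.488), and 0.69 (SE 0.23, adjusted p = 0.170) without SARAWT vehicle 3. Slc22a7 stayed at 0 to 1.65 CPM in all libraries. Of 6 members tested, 0 passed in each fit, where 0% of all genes passed with 9 libraries (935 and 1295 genes at an unadjusted p under 0.05 in SARAWT and over both genotypes, 22 and 103 by DESeq2) and 0.749% and 0.645% without SARAWT vehicle 3. The S3 and convoluted differences were not tested against each other.

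With both segments summed, Slc22a6 was at 748, 307, 619.7 and 821 CPM in 4 vehicle libraries, 98.04 CPM in SARAWT vehicle 3, and 139, 243, 127 and 173 CPM after AA. With all 9 libraries, 0 of 6 members passed in either fit (0% of all genes; 1505 and 3330 genes at an unadjusted p under 0.05, 65 and 1242 by DESeq2). Without SARAWT vehicle 3, 1 of 6 passed over both genotypes against 14.5% of 13952 genes, a share near that of all genes (Slc22a6 fell by 2.05, SE 0.42, adjusted p = 0.0240). In SARAWT, 0 of 6 passed against 1.82% of 14705 genes, with Slc22a6 at -1.85 (SE 0.51, adjusted p = 0.0948). The proportions of the segments in this sum varied between libraries, with 6239 of 8845 proximal tubule cells in the S3 gate in SARAWT vehicle 1, 507 of 7764 in SARAWT vehicle 2, 201 of 1771 in SARAWT AA 2 and 19 of 1205 in SARATg AA 1.

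Summed over all kept cells, Slc22a6 was at 692, 255, 401 and 494 CPM in 4 vehicle libraries, 28.5 CPM in SARAWT vehicle 3 and 20.6, 126, 22.0 and 37.4 CPM after AA. Por was at 83.6, 60.3, 59.2 and 62.5 CPM, 48.7 CPM, and 36.7, 53.2, 34.5 and 40.0 CPM. The exact permutation p was 0.0476 for Slc22a6 and 0.0317 for Por with 9 libraries, neither adjusted. By edgeR 0 of 7 members passed with 9 libraries in either fit (0% of all genes; 2408 and 3295 at an unadjusted p under 0.05, 141 and 820 by DESeq2). Without SARAWT vehicle 3, 1 of 7 passed in SARAWT (Slc22a6 fell by 3.28, SE 0.94, adjusted p = 0.0433) against 28.8% of genes. Over both genotypes 2 of 7 passed against 26.7% of genes, where Slc22a6 fell by 3.44 (SE 0.76, adjusted p = 0.0266) and Por fell by 0.90 (SE 0.24, adjusted p = 0.0351). These counts are near or below the share of all genes. Por in all cells thus had the opposite sign to Por in S3. The proximal tubule share itself was 31.2 percentage points lower after AA (exact permutation p = 0.0794), and 39.4 points lower without SARAWT vehicle 3 (p = 0.0571), and cell mixture was not separated from level per cell in these sums.

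In the genotype contrasts by label, the SARATg AA effect rested on 1 AA library with 19 S3 cells against 2 vehicle libraries, and the lone library was assumed to vary like the other groups. SARATg AA 1 was a library with high Xist and nearly no Y-linked counts, whereas both SARATg vehicle libraries had Xist at 0.278 and 0.477 CPM and Y-linked genes at 145 and 152 CPM, so this difference, the SARATg AA effect and the difference between genotypes cannot be told apart. Slc22a6 in S3 had a SARATg difference of -3.39 (SE 1.56, edgeR adjusted p = 0.355), and the difference of the AA effect between genotypes was -0.06 (SE 1.63, adjusted p above 0.99). These were -3.40 (SE 0.62, adjusted p = 0.0549) and 0.46 (SE 0.67, adjusted p = 0.7996) without SARAWT vehicle 3. For Slc22a8 the difference between genotypes was 3.12 (SE 2.90), for Nqo1 1.13 (SE 0.92) and for Por -1.10 (SE 0.59). For Slc22a7, with 0 proximal tubule UMIs in SARATg AA 1, it was -12.44 (SE 8.55), so that its size is poorly determined. Without SARAWT vehicle 3 it was 3.67 for Slc22a8, 0.55 for Nqo1 and -14.66 for Slc22a7. By edgeR 0 members and 0% of genes passed in either contrast in S3, the convoluted segment or both summed. In S3, 1872 genes had an unadjusted p under 0.05 in SARATg and 1245 for the difference between genotypes, DESeq2 called 292 and 128, and the median of all genes was -0.43 and -0.31. In SARATg, DESeq2 put Slc22a6 just past the threshold in S3 (-3.33, adjusted p = 0.0492), and Slc22a7, which had 0 proximal tubule UMIs in SARATg AA 1, past it in both segments summed (adjusted p = 0.0212) and over all kept cells (adjusted p = 0.00525), while edgeR gave Slc22a7 adjusted p-values of 0.401 and 0.918. With all libraries, the standard errors leave room for undetected differences of several log2 units for the carriers. Without SARAWT vehicle 3 the standard error of the difference between genotypes in S3 was 0.67 for Slc22a6, 1.64 for Slc22a8 and 4.24 for Slc22a7.

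Cyp1a1, which reduces AA and is classically induced through the aryl hydrocarbon receptor, was measurable mainly in intercalated cells, the acid and base secreting cells of the collecting duct. There it was at 25.6, 35.1, 33.7, 18.9 and 25.2 CPM in SARAWT vehicle 1, SARAWT vehicle 2, SARATg vehicle 1, SARATg vehicle 2 and SARAWT vehicle 3, from 5 to 134 UMIs. After AA it was at 13.2, 33.02, 7.26 and 13.5 CPM in SARAWT AA 1 to 3 and SARATg AA 1. In 3 of the 4 AA libraries it was below all vehicle libraries, and SARAWT AA 2 was among them. The means were 16.8 ± 11.2 CPM (SD, n = 4) and 27.7 ± 6.69 CPM (n = 5), and neither edgeR (-0.82, SE 0.36, adjusted p = 0.249 over both genotypes) nor the exact permutation test (p = 0.0635) passed. The values were -0.85 (SE 0.37, adjusted p = 0.232) and an exact permutation p of 0.0857 without SARAWT vehicle 3.

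Sult1a1 in intercalated cells was at 15.7, 28.3, 10.4 and 25.2 CPM in 4 vehicle libraries, 5.04 CPM (1 UMI) in SARAWT vehicle 3, and 8.52, 8.26, 4.84 and 8.78 CPM after AA. All AA libraries were below all vehicle libraries other than SARAWT vehicle 3. The difference was -1.20 (SE 0.40, edgeR adjusted p = 0.154), and -1.30 (SE 0.37, adjusted p = 0.0954) without that library. Of 4 members tested in SARAWT 0 passed against 0.101% of genes, and of 3 tested over both genotypes 0 passed against 0.739%.

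**Figure D4:**
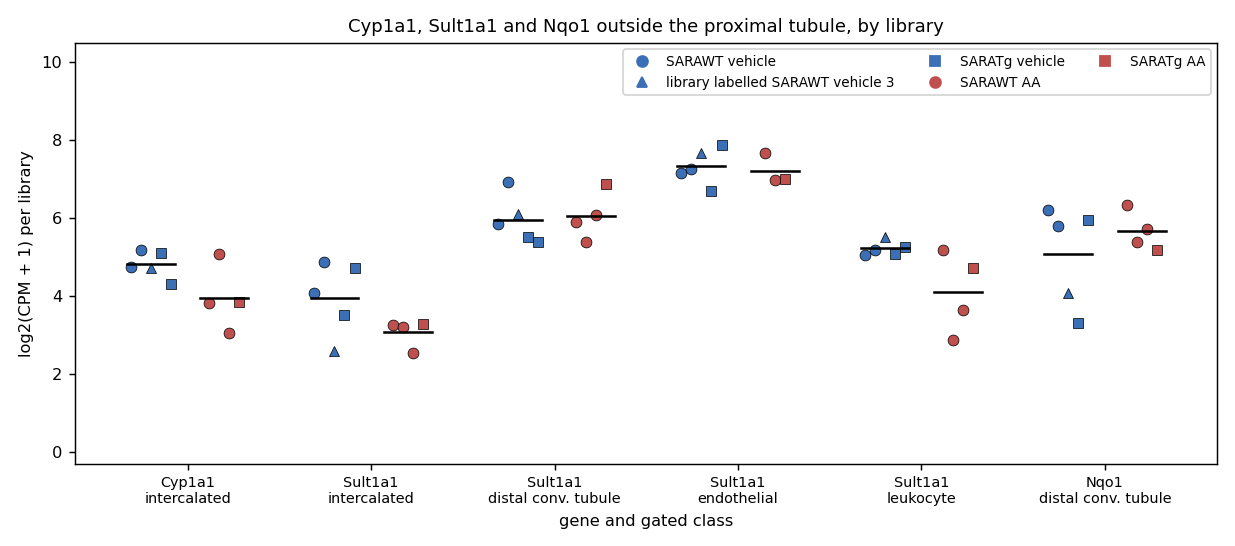
Level of Cyp1a1 in intercalated cells, Sult1a1 in intercalated, distal convoluted tubule, endothelial and leukocyte classes and Nqo1 in the distal convoluted tubule, by library as log2(CPM + 1), with vehicle in blue, AA in red and bars for group means. The groups overlap in every panel, and in intercalated Sult1a1 the overlap comes from SARAWT vehicle 3 (5.04 CPM).

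In endothelial cells, where Sult1a1 was highest, it was at 142, 153, 102, 232 and 202 CPM with vehicle and at 202, 124 and 127 CPM in the AA libraries with at least 10 cells (difference -0.12, exact permutation p = 0.786, 3 against 5). In leukocytes it was at 32.2 to 45.0 CPM with vehicle and at 35.2, 6.31, 11.4 and 25.3 CPM after AA (-1.12, exact permutation p = 0.0635). The exact permutation p was 0.971 in endothelial cells and 0.114 in leukocytes without SARAWT vehicle 3. In the distal convoluted tubule neither Sult1a1 (0.10, p = 0.889) nor Nqo1 (0.59, p = 0.476) passed the exact permutation test (p = 0.771 and 0.857 without SARAWT vehicle 3), and Nqo1 there ranged from 8.88 to 80.2 CPM over all libraries. By label, the edgeR difference of Sult1a1 there had opposite signs, -0.48 (SE 0.31) in SARAWT and 1.49 (SE 0.51) in SARATg, the latter from 1 AA library. Endothelial Cyp1a1 was at 20.8 CPM (14 UMIs) in SARAWT AA 1, 19.6 CPM (16 UMIs) in SARATg AA 1 and 5.10 CPM (2 UMIs) in SARAWT vehicle 2, and had 0 UMIs in the others. Of these others, SARAWT AA 2 had 21 endothelial cells (upper limit 57.4 CPM, exact Poisson) and SARAWT AA 3 had 1 cell. Their order against the other AA libraries is therefore not established.

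Other genes of the same steps were counted from fixed lists. With 9 libraries, none of the 14 other carriers, the 7 other reductases and oxidases, the 7 genes of the conjugation list, the 7 regulators or the 5 injury genes passed in S3 or in both segments, by edgeR in SARAWT or over both genotypes, where 0% of all genes passed in the same fits, so these counts of 0 say nothing particular to the lists. Of the 14 other carriers, 2 passed in S3 of SARAWT without SARAWT vehicle 3, where 4.85% of all genes passed, with a median of 0.40 for the list and -0.03 for all genes. They were chosen after their values were seen. Slco4c1, a basolateral organic anion carrier, rose by 6.58 (SE 1.34, adjusted p = 0.0374), and Slc13a3, the dicarboxylate carrier that fuels anion exchange, fell by 2.76 (SE 0.36, adjusted p = 0.0103). In the same fit, of 6 genes tested from the conjugation list 1 passed, of 5 reductases and oxidases 0, and of 6 regulators (Ahr, Nfe2l2 and Hnf4a among them) 0, with medians of -0.30, 0.22 and -0.03. The 1 was Ephx1 (rose by 7.06, SE 0.73, edgeR adjusted p = 0.00457), a microsomal epoxide hydrolase that was in that list but is not itself a conjugating enzyme. Ephx1 too was named after its value was seen. In this fit the S3 cells of the vehicle and SARAWT AA libraries lay mostly in different clusters. The part of this in the Slco4c1, Slc13a3 and Ephx1 differences was not tested.

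In skin, the carriers were nearly absent. Over all kept cells, the 4 PBS skin libraries had 0 to 0.0212 CPM of Slc22a6, 0 to 0.307 CPM of Slc22a7 and 0 UMIs of Slc22a8, whereas the 5 vehicle kidney libraries had 28.5 to 692, 4.44 to 42.3 and 32.6 to 331 CPM. Kidney exceeded skin by 7.98, 3.80 and 7.05 on the log2(CPM + 1) scale (two-sided exact permutation p = 0.0159 each, the smallest that 5 against 4 allows, 8 tests, not adjusted). With 10 CPM added in place of 1 these differences were 4.76, 1.37 and 3.85 (exact p = 0.0159 each), so their size depends on the constant added. Nqo1 was also higher in kidney (15.05 ± 6.22 CPM, n = 5, against 2.12 ± 0.245 CPM, n = 4, exact p = 0.0159), by 2.28 on the log2 scale with 1 CPM added and by 1.01 with 10 CPM added. Por had the opposite order, with 62.9 ± 12.8 CPM in kidney and 127 ± 26.3 CPM in skin (difference -0.99, exact p = 0.0159), and the groups did not overlap (48.7 to 83.6 against 89.4 to 146 CPM). Sult1a1 (14.6 ± 10.2 against 29.3 ± 10.45 CPM, exact p = 0.0794), Cyp1a1 (exact p = 0.175) and Cyp1a2 (exact p = 0.0952) did not pass. Tissue, experiment and sort yield cannot be told apart here.

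**Figure D5:**
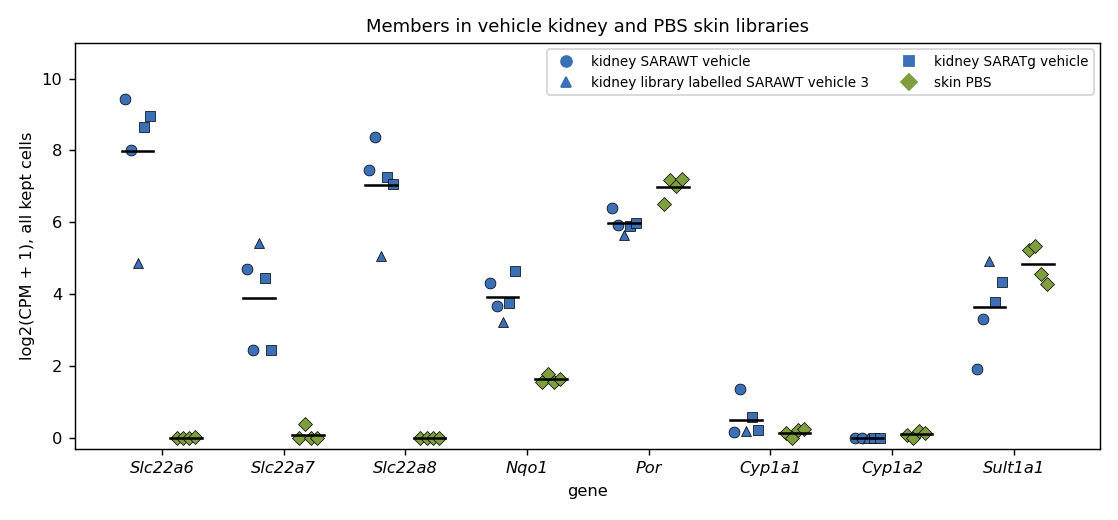
Level of each member over all kept cells in the 5 vehicle kidney and 4 PBS skin libraries, as log2(CPM + 1), one point per library with bars for the means. The 3 Slc22a carriers and Nqo1 lie higher in every kidney library, and Por lies higher in every skin library (89.4 to 146 CPM).

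Within PBS skin, Por was at 78.5 to 229 CPM in mural and stromal cells, 93.2 to 163 CPM in leukocytes and 21.8 to 59.5 CPM in keratinocytes. Sult1a1 was at 66.1 to 368 CPM in endothelial cells, 28.3 to 60.7 CPM in leukocytes and 2.80 to 8.01 CPM in mural and stromal cells, so that endothelial cells held its highest level in both tissues. Skin libraries held 3253091 to 64791896 UMIs of kept cells.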

How the data were processed

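Single cells of 9 kidney and 8 skin libraries had been sequenced from the 3′ end in droplets (10x Genomics, v3 chemistry). The deposited values are whole-number UMI counts per gene and cell barcode, with no normalization, which the authors made with Cell Ranger (3.0.2 for all kidney libraries). The submitters' processing notes also name mm10 and Seurat 2.3.4. The members and all lists were chosen with earlier results of these data known.

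Cells with fewer than 200 genes or more than 50% mitochondrial UMIs were left out. Predicted doublets were left out at 0.8% per 1000 cells (scrublet in scanpy 1.11.5, Python 3.11.15), 5292 in all. Cells were gated by markers. A class needed UMIs of at least 2 of its markers, a marker level of at least 0.1 of its top cells and a lead of 2 times over the next class. UMIs were summed per library and class (at least 10 cells) and divided by the class total to give CPM. The sums were tested with edgeR 4.0.16 in R 4.3.3 (two-sided quasi-likelihood F test after filterByExpr and TMM, Benjamini-Hochberg over all genes tested, threshold 0.05) in 4 groups, or with genotype as an additive term. Single members were tested with exact permutation tests on log2(CPM + 1) (scipy 1.17.1). The scripts were tested on simulated counts. Alternatives were DESeq2 1.42.0, 10 CPM added in place of 1 for the segment and skin comparisons, no filter on low counts, the Xist and Y-linked level as a covariate, a replicate block, each library left out, doublets kept, stricter cells (500 genes, 20%), a stricter gate and 43 clusters (leiden) in place of gates. Leaving out both libraries with high Xist was added after seeing the data. All 8 members were named by rule, and from the other lists those past the threshold with 9 libraries in both segments of SARAWT, of which there were 0. A gene of the regulator list is not reported here. Motifs were searched on both strands of RefSeq promoters.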

Additional observations from a re-analysis of the deposited data

Results flagged for a closer look

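In groups of 4 or 5 libraries, 58 sets of member values were searched for a library far from the others, and 7 were found. Chance alone gives about 1 in 20. Of the 7, 4 came from the library labelled SARAWT vehicle 3, set against the other 4 vehicle libraries. Its Slc22a7 was at 448.36 CPM in S3 cells, where the others held 15.2 to 67.5 CPM, and at 144.36 CPM in both proximal tubule segments summed, where the others held 5.33 to 32.2 CPM. Its Por was at 143.42 CPM in S3 (others 84.1 to 91.8 CPM) and at 95.916 CPM in convoluted cells (others 60.0 to 66.1 CPM). In S3 both values lay within the range of the SARAWT AA libraries.

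Among the 4 AA libraries, S3 cells of SARATg AA 1 held Slc22a8 at 61.106 CPM from 8 UMIs, against 0 to 9.32 CPM in the others. Intercalated cells of SARAWT AA 3 held Sult1a1 at 4.8404 CPM from 4 UMIs, against 8.26 to 8.78 CPM. Over all kept cells, SARAWT AA 2 held Slc22a6 at 125.77 CPM, against 20.6 to 37.4 CPM, and it also had the highest proximal tubule share of the AA libraries, at 38.4%. The part of the cell mixture in this value was not tested.

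In skin libraries that entered no comparison, Por was at 215.47 CPM over all kept cells of SARAWT bleomycin 3, above the 89.4 to 146 CPM of the 4 PBS libraries. The other bleomycin libraries held 108, 122 and 108 CPM.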

How the results depend on the processing

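In the proximal tubule classes and over all kept cells, the count of genes called by edgeR depended on whether 1 vehicle library was kept. Over both genotypes, counts in the thick ascending limb, distal convoluted tubule and intercalated cells moved with other libraries too. Leaving out each library in turn, the count of genes called ranged in SARAWT from 0 to 268 in both proximal tubule segments, 0 to 99 in convoluted cells, 0 to 579 in S3, 0 to 86 in the thick ascending limb, 0 to 242 in the distal convoluted tubule, 0 to 17 in principal cells, 0 to 128 in intercalated cells and 0 to 5206 over all kept cells. Over both genotypes the ranges were 0 to 2030, 0 to 81, 0 to 747, 0 to 84, 0 to 142, 0 to 26, 0 to 128 and 0 to 4583. In the proximal tubule classes and over all cells the highest count came without SARAWT vehicle 3, and the S3 calls of Slc22a8, Nqo1 and Por were made in no other alternative, while Slc22a6 in S3 was also called by DESeq2 with all 9 libraries. Over these refits Slc22a7 in S3 changed sign (-0.041 to 2.67 in SARAWT, -0.48 to 1.82 over both genotypes), as did Por in convoluted cells (-0.18 to 0.25 and -0.023 to 0.32). Over both genotypes Slc22a8 in convoluted cells ranged from -1.17 to -0.39, and in intercalated cells Cyp1a1 ranged from -1.25 to -0.60 and Sult1a1 from -1.43 to -0.70, while Nqo1 in S3 of SARAWT ranged from 0.51 to 1.38. Without SARAWT vehicle 3, exact permutation tests gave -1.82 for Slc22a6 and 0.10 for Slc22a7 (from -0.56) in both segments, -3.65 for Slc22a6 and -5.09 for Slc22a8 in S3, 0.36 for Por in convoluted cells, -1.21 for Sult1a1 and -0.37 for Por in intercalated cells, and -2.81 for Slc22a8 over all cells. The difference in proximal tubule share ranged from -39.4 to -22.7 points over both genotypes and from -59.6 to -26.3 points in SARAWT, the largest without SARAWT vehicle 3 (-38.8 with all libraries).

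DESeq2 called more genes than edgeR in the classes and fits listed here. In SARAWT it called 65 in both segments, 22 in convoluted cells, 25 in S3, 5 in the thick ascending limb, 19 in the distal convoluted tubule (edgeR 5), 78 in intercalated cells (edgeR 9) and 141 over all cells, and over both genotypes 1242, 103, 134, 36 (edgeR 3), 51 (edgeR 6), 143 (edgeR 60) and 820, with 2 in principal cells. Slc22a7 in S3 was then at -0.21 over both genotypes. Other settings are given for SARAWT and then for both genotypes. With no filter on low counts the counts were 202, 320, 19 and 557 in the thick ascending limb, distal convoluted tubule, principal and intercalated cells, and 257, 334, 70 and 648. With SARAWT libraries only, they were 0 in the distal convoluted tubule and 2 in intercalated cells. With the Xist and Y-linked covariate they were 0 in the distal convoluted tubule, 18 in principal and 4 in intercalated cells, and 7 in the thick ascending limb, with Slc22a7 in S3 at -0.13. With clusters in place of gates they were 0 in the distal convoluted tubule and 2 in intercalated cells, and 7, 0 and 5 in the thick ascending limb, distal convoluted tubule and intercalated cells, with Slc22a7 in S3 at -0.034 in both fits and Por in convoluted cells at -0.017. With doublets kept they were 0, 1 and 0 in the distal convoluted tubule, principal and intercalated cells, and 0, 2 and 10. With stricter cells they were 8, 30 and 21, and 37, 2 and 11, and the difference in proximal tubule share was -31.7 points (exact p = 0.0476). With the stricter gate they were 18, 27 and 17, and 10 in the thick ascending limb and 12 in the distal convoluted tubule. Without both libraries with high Xist they were 0, 24 and 0, and 0 in the thick ascending limb with 0, 24 and 0 in the others, and Por in convoluted cells was at -0.17. The cause of these changes was not tested.

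Replicate numbers showed no clear pairing of the SARAWT libraries. In both proximal tubule segments summed, correlations of deviations were -0.104, 0.205 and 0.236 for the 3 numbers, and 0.361 between vehicle 1 and AA 2. Over all kept cells they were -0.395, 0.366 and 0.332, and 0.552 between vehicle 1 and AA 2. With 3 libraries in each group, such correlations cannot exclude a pairing. With the replicate block, 0 genes were called in the distal convoluted tubule of SARAWT, against 5 without it, and Por in convoluted cells was at 0.0079. A covariate for the Cell Ranger version was not run because all kidney libraries share 1 version, and gates do not apply to all kept cells. Depth was low in several classes after AA, and in S3 SARATg AA 1 held 130919 UMIs in 19 cells.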
